A study of Homo sapiens with 4 samples.

Results

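The phagocyte NADPH oxidase genes examined here were 7 in number, CYBA, CYBB, NCF1, NCF4, RAC1, RAC2 and RAP1A. The array annotation names 18417 genes on probe sets with 1 symbol, among them all of these but NCF1. Probe sets were taken by gene symbol, and the one with the highest mean log2 intensity over the 4 arrays stood for its gene. A probe set of their own was present for 6 of the 7 genes, and all 6 were among the 12892 genes tested after the dimmest 30% were left out. NCF1 was covered only by 3 probe sets that the annotation lists for NCF1, NCF1B and NCF1C together, near-identical copies whose RNA these probes cannot separate.

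The arrays measured RNA of NOMO-1, a monocytic cell line from a human acute myeloid leukaemia, after lentiviral delivery of hairpins against ZFX, a zinc finger transcription factor encoded on the X chromosome. All cells were of this line, had been infected at a multiplicity of infection of 1 and selected, and gave RNA 48 h after selection. The control group (ZFX wild type) held LEN-GFP, 1 array of cells that received a GFP virus, and SCR, 1 array of cells that received a scrambled hairpin. The ZFX knock-down group held 1 array each of the hairpins SH1 and SH3. No construct was arrayed again and nothing in the labels says whether cultures were independent, so the spread between arrays joins construct, culture and array, and may in part be technical. Exact permutation of 2 against 2 arrays cannot give a two-sided p under 0.333, and tests therefore used limma across all genes.

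The oxidase of phagocytes moves electrons from NADPH across a membrane to oxygen and so makes superoxide, which is used to kill engulfed microbes. Its catalytic core is a heterodimer of gp91phox (CYBB) and p22phox (CYBA) in the membrane, where RAP1A, a small GTPase of the Ras family, co-purifies with it. On stimulation cytosolic subunits, among them p47phox (NCF1) and p40phox (NCF4), move to this core together with a GTP-bound Rac protein, RAC2 in neutrophils and largely RAC1 in monocytes. The enzyme is characteristic of neutrophils, monocytes and macrophages, and loss of a subunit causes chronic granulomatous disease.

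The label of the line was checked against marker genes. Of 10 monocytic markers on the array, 10 passed the filter on dim genes, among them the myeloid transcription factor SPI1 (log2 11.23 to 11.32) and the integrin ITGAM (11.91 to 12.39). Others of the list were dim, CD14 at 7.27 to 7.62 and CLEC7A at 6.71 to 7.47. Of 5 T cell markers 0 passed it, but 3 of 4 B cell, 2 of 3 erythroid, 3 of 5 epithelial and 4 of 5 fibroblast markers did, so that passing it is no sign of expression. The summed intensity of the monocytic markers was 43877 to 44604 on the controls and 45033 to 45417 on the hairpin arrays, and its part in the results below was not tested. ZFX itself was lower on both hairpin arrays, where its log2 intensity was 10.13 (SH1) and 10.12 (SH3), than on LEN-GFP (10.65) and SCR (10.66). The difference was -0.53 (SE 0.10, unadjusted p = 0.00386, adjusted p = 0.797 in limma). The fit of knock-down against control used for the oxidase genes thus did not call ZFX either. The median intensity was 184.8 to 189.8 over the 4 arrays.

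Upstream sequence is shown for CYBB, NCF1 and RAP1A, whose probe sets moved most over the 4 arrays (a choice made after their values were seen). The NCF1 signal is shared with NCF1B and NCF1C, for which no window was at hand, so the sequence shown may not belong to its source. The stretches are the 120 bases before the RefSeq start site, from build GRCh38.p14, plus strand, at chrX:37779939-37780058 for CYBB, chr7:74773891-74774010 for NCF1 and chr1:111541889-111542008 for RAP1A. Capitals mark GAGGAA or its reverse complement TTCCTC, the core of the motif bound by PU.1, the product of SPI1.
CYBB: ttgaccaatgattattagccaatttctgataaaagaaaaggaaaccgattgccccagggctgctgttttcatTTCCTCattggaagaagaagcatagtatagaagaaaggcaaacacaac
NCF1: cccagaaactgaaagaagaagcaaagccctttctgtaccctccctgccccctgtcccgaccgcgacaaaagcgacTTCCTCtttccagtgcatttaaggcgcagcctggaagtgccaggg
RAP1A: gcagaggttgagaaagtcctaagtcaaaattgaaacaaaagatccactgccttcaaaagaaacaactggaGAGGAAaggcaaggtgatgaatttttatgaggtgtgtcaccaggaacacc
The match began 48 bases before the start in CYBB and 45 bases before it in NCF1, on the strand opposite to the gene in both, and 50 bases before it on the gene's own strand in RAP1A. Over windows from 250 bases before to 50 bases after the start, GAGGAA on either strand was present in 3 of the 4 member windows at hand (CYBA had no match, and RAP1A had a match also 31 bases after the start) and in 27.9% of 35116 RefSeq windows. AGGCCT, the palindromic core of the motif known for ZFX, was present in 0 of these 4 windows and in 10.9% of all windows. These matches describe the letters of the windows and were not tested for binding.

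Between knock-down and control, 0 of the 6 genes with a probe set of their own passed limma's adjusted threshold of 0.05 (0% of the 12892 genes tested passed it), and 0 of the 6 had an unadjusted p under 0.05, against 6.04% of all genes. The membrane subunit gene CYBB went up on SH1 and down on SH3, so that its mean hardly moved. Of these 6, only RAP1A had both hairpin arrays above both controls, at a mean of 1.27 times the control level. The shared NCF1 signal, which is not among the 6, was also above both controls on both, at 1.25 times. CYBA, NCF4, RAC1 and RAC2 differed by at most 0.06 on the log2 scale between the group means. The median difference of the 6 genes was 0.02, and that of all genes tested was -0.0029. The groups did not overlap on 1 of the 6 genes (16.7%), in the higher direction, where 18.2% of all genes tested were apart in that direction and 19% in the lower one.

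**Figure D1:**
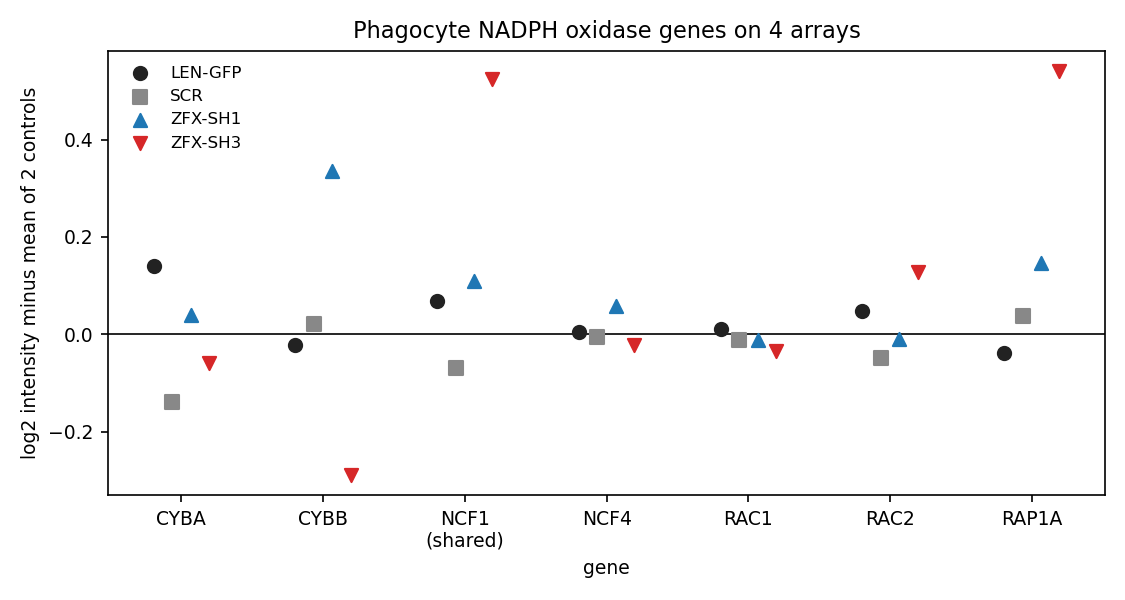
Log2 intensity of each oxidase gene on the 4 arrays, each minus the mean of the controls LEN-GFP and SCR of that gene. NCF1 stands for the probe set shared with NCF1B and NCF1C. CYBB lies at 0.33 on SH1 and -0.29 on SH3, RAP1A and the NCF1 signal are highest on SH3, at 0.54 and 0.52, and NCF4 and RAC1 stay within 0.06 of 0 on all arrays.

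CYBB encodes gp91phox, the subunit that carries the flavin and haems through which electrons pass. Its intensity was 9046 on LEN-GFP, 9324 on SCR, 11584 on SH1 and 7517 on SH3, or 13.14, 13.19, 13.50 and 12.88 on the log2 scale. SH1 was the highest and SH3 the lowest of the 4 arrays, with the controls close together between them. The difference between the group means was 0.02 (SE 0.21, 95% interval -0.51 to 0.56, adjusted p = 0.989 in limma). Of all genes tested, 87.3% had a difference at least this large in size.

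The 2 hairpins differed from each other on CYBB. SH3 was lower than SH1 by a log2 difference of -0.62 (SE 0.08, 95% interval -0.82 to -0.43, limma's adjusted p = 0.00398), a ratio of 0.649. This fit has 1 array per hairpin and takes its spread from the control pair and from the other genes, so the hairpin arrays are assumed to vary like the controls. It called 8.49% of all genes tested (4.48% as lower on SH3) and 1 of the 6 oxidase genes, and 7.37% of all genes had a difference at least as large. The call was not made when all 23308 probe sets of sufficient brightness were fitted in place of genes (adjusted p = 0.0775), a fit that called 0.536% of them. Against both controls, SH1 was at 1.26 times the control level (log2 0.33, SE 0.07, adjusted p = 0.102, not past the threshold) and SH3 at 0.818 times that level (log2 -0.29, SE 0.07, adjusted p = 0.0362). These fits share the control arrays. The rise on SH1 was the larger of the 2 changes in size, and adjusted p-values from separate fits do not rank them. With all probe sets fitted, SH3 against the controls had an adjusted p of 0.159. The controls SCR and LEN-GFP differed by 0.04 (SE 0.33) on CYBB.

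CYBA encodes p22phox, the partner that stabilizes gp91phox and docks p47phox. Its log2 intensity was 10.22 on LEN-GFP, 9.94 on SCR, 10.12 on SH1 and 10.02 on SH3. Both hairpin arrays lay between the controls, which were the highest and the lowest array. The difference between the groups was -0.0095 (SE 0.14, 95% interval -0.38 to 0.36, adjusted p = 0.994 in limma), and 94.6% of all genes tested had one at least as large in size. SCR was lower than LEN-GFP by -0.28 (SE 0.23, adjusted p = 1), and SH3 lower than SH1 by -0.10 (SE 0.17, adjusted p = 0.828). The partners of the membrane heterodimer thus had different orders over the arrays, CYBB with its extremes on the hairpins and CYBA on the controls.

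RAP1A, the small GTPase found with the membrane core and better known for its control of integrins, had log2 intensities of 10.60 on LEN-GFP, 10.67 on SCR, 10.78 on SH1 and 11.18 on SH3. Both hairpin arrays were above both controls, with a gap of 0.11 between SCR and SH1, and SH3 stood clear of the other 3 arrays. The difference was 0.34 (SE 0.16, 95% interval -0.07 to 0.76, unadjusted p = 0.0862, adjusted p = 0.797 in limma; exact permutation p = 0.333, the smallest possible). A difference of this size or larger was found on 10.2% of all genes tested.

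Most of the RAP1A difference was on SH3. SH1 was at 1.11 times the control level (log2 0.15, SE 0.11, adjusted p = 0.806 in limma) and SH3 at 1.45 times (log2 0.54, SE 0.11, adjusted p = 0.0155). The fit of SH3 against the controls called 13.2% of all genes tested (6.27% higher, 6.9% lower) and 2 of the 6 oxidase genes, RAP1A higher and CYBB lower, and that of SH1 called 0.419% of all genes and 0 of the 6. With all probe sets fitted, SH3 against the controls called 1.78% of them, and RAP1A was not called (adjusted p = 0.0893). The direct difference of SH3 and SH1 on RAP1A was 0.39 (SE 0.13, 95% interval 0.10 to 0.69) and did not pass after adjustment (unadjusted p = 0.0144, adjusted p = 0.108).

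**Figure D2:**
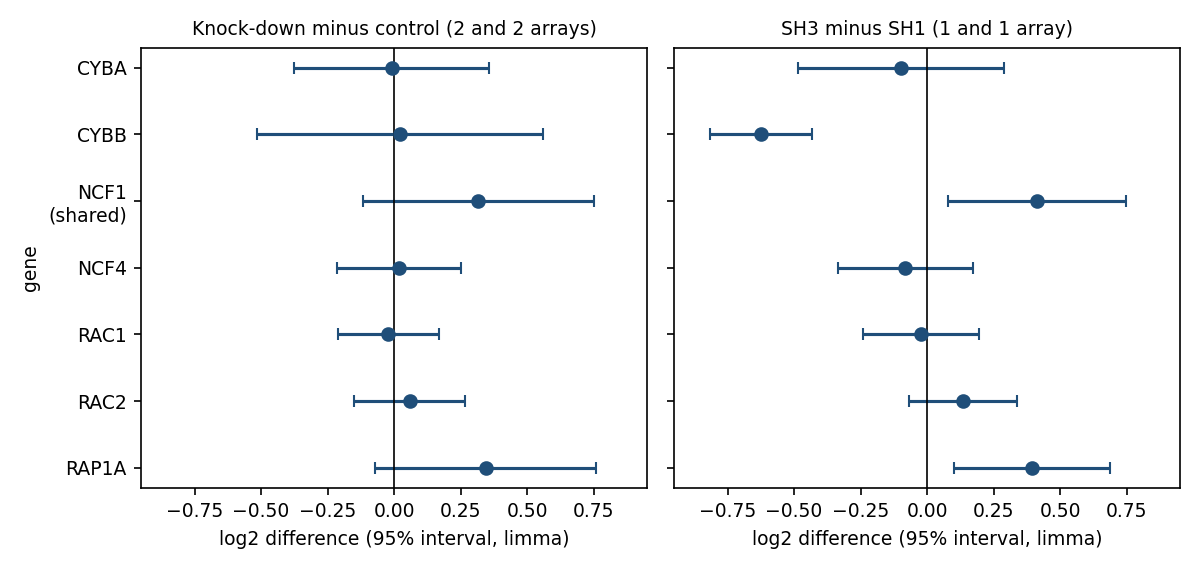
Log2 differences with 95% intervals from limma for each oxidase gene, knock-down minus control on the left and SH3 minus SH1 on the right. On the left all 7 intervals include 0. On the right CYBB lies at -0.62. The intervals of RAP1A (0.10 to 0.69) and the shared NCF1 signal (0.08 to 0.75) are above 0. In the fit over genes only CYBB passed the adjusted threshold. The NCF1 signal was fitted among all probe sets, where neither it nor CYBB passed.

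NCF1 encodes p47phox, the organizer whose phosphorylation starts assembly of the enzyme. The probe set of highest mean among the 3 shared with NCF1B and NCF1C had log2 intensities of 11.36 on LEN-GFP, 11.23 on SCR, 11.40 on SH1 and 11.82 on SH3. SH1 exceeded LEN-GFP by a gap of 0.04 only, and SH3 was well above the others. Because it carries several symbols, this signal was fitted among the 23308 probe sets and not among the genes. The difference was 0.32 (SE 0.17, 95% interval -0.12 to 0.75, adjusted p = 0.900 in limma). SH1 was at 1.08 and SH3 at 1.44 times the control level, and SH3 alone against the controls had an adjusted p of 0.0935. SH3 minus SH1 was 0.41 (SE 0.13, adjusted p = 0.242). The other 2 shared probe sets differed by 0.32 and 0.31 between the groups. The annotation gives the 3 sets the same accessions, so they are not separate evidence, and which copy gave the signal cannot be told apart.

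NCF4 encodes p40phox, which binds phosphatidylinositol 3-phosphate on phagosomes. Its log2 intensity was 11.60 on LEN-GFP, 11.59 on SCR, 11.65 on SH1 and 11.57 on SH3. The controls lay between the hairpin arrays, SH1 again on top and SH3 at the bottom, but within a range of 0.08. The difference between the groups was 0.02 (SE 0.09, 95% interval -0.21 to 0.25, adjusted p = 0.977 in limma), and SH3 minus SH1 was -0.08 (SE 0.11, adjusted p = 0.766).

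RAC1 and RAC2, closely related small GTPases, gave steady signals on the probe sets used. RAC1, on the probe set of highest mean, had log2 intensities of 12.47 on LEN-GFP, 12.44 on SCR, 12.44 on SH1 and 12.42 on SH3. SH3 was the lowest of 4 nearly equal arrays, and SCR and SH1 were level. The difference was -0.02 (SE 0.07, 95% interval -0.21 to 0.17, adjusted p = 0.963 in limma), with SH3 minus SH1 at -0.02 (SE 0.10, adjusted p = 0.941). RAC2, the form restricted to blood cells, had 13.22 on LEN-GFP, 13.12 on SCR, 13.16 on SH1 and 13.30 on SH3. SH3 was the highest array and SH1 lay between the controls, so the groups overlapped. The difference was 0.06 (SE 0.08, 95% interval -0.15 to 0.27, adjusted p = 0.899), and SH3 minus SH1 was 0.14 (SE 0.09, adjusted p = 0.444).

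RAC1 was the gene whose probe sets did not move together. The set used, listed for NM_006908, and a second one, listed for the alternatively spliced NM_018890, differed between the groups by -0.02 and -0.01. The third, listed for both transcripts, had log2 intensities of 9.74 on LEN-GFP, 9.45 on SCR, 9.63 on SH1 and 9.92 on SH3. It was highest on SH3 and lowest on SCR, with a difference between the groups of 0.18 (SE 0.17, adjusted p = 0.910 in limma over probe sets) and SH3 minus SH1 of 0.29 (SE 0.19, adjusted p = 0.573). With the mean of all probe sets in place of the brightest, the difference of RAC1 turned from -0.022 to 0.049 and that of SH3 minus SH1 from -0.022 to 0.087, and neither passed (adjusted p = 0.934 and 0.767 in limma).

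**Figure D3:**
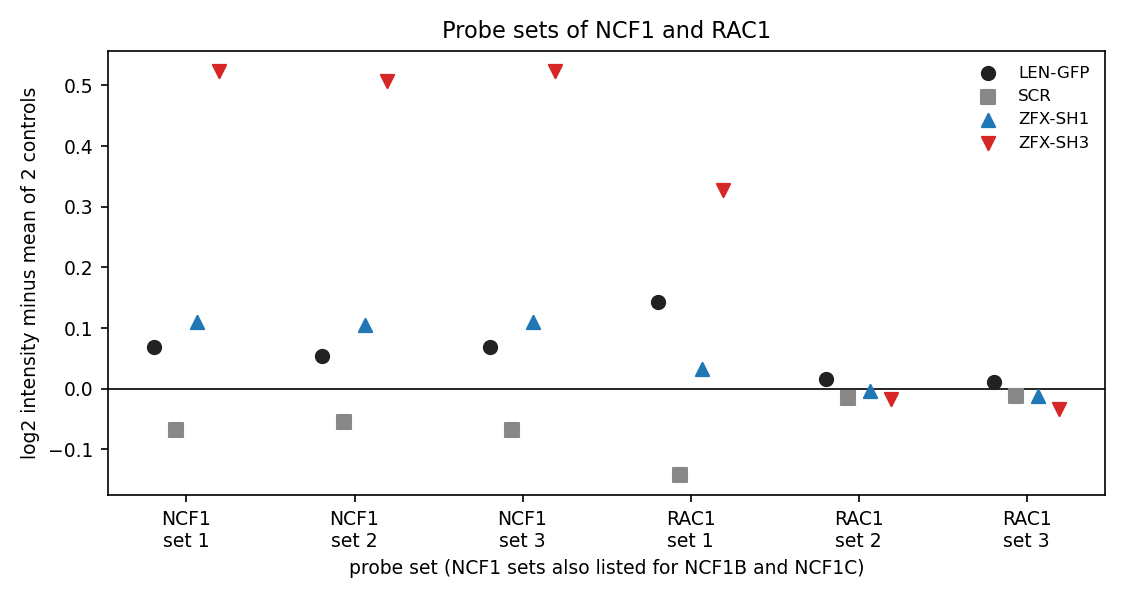
Log2 intensity of the 3 probe sets shared by NCF1 and its copies and of the 3 RAC1 probe sets on the 4 arrays, each minus the mean of the controls. The NCF1 sets have SH3 at 0.51 to 0.52, and of the RAC1 sets only the first, listed for both transcripts, spreads over the arrays, from SCR to SH3 by 0.47.

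CYBB had the widest range over the arrays (0.62) of the 6 genes, and the genes nearest to its profile were sought among the other 12891 by the root mean square distance of centred log2 values. These were FASTKD1 (distance 0.02), a mitochondrial protein of the FAST kinase domain family, the antisense RNA NINJ2-AS1 (0.02), KBTBD4 (0.02), an adaptor of a ubiquitin ligase, CXorf38 (0.02) and ERC1 (0.03), a scaffold of secretion sites. FASTKD1 was at 0.31 on SH1 and -0.31 on SH3 against the mean of the controls, and KBTBD4 at 0.37 and -0.30. With 4 arrays such likeness is common, and 248 genes lay within a distance of 0.1 of CYBB. None of these genes is another member of the oxidase.

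The partners and regulators of the oxidase were then described by lists. Over all genes tested, 18.2% were apart higher, 19% were apart lower and 6.04% had an unadjusted p under 0.05. Of 9 oxidase partners tested 0 passed limma's adjusted threshold and 0 had an unadjusted p under 0.05, while 1 was apart higher and 2 lower (18.2% and 19% of all genes), and their median was -0.05. The proton channel HVCN1, which balances the charge moved by the oxidase, had 10.84 and 10.71 on the controls (LEN-GFP, SCR) against 10.89 on SH1 and 11.04 on SH3, a difference of 0.19 (SE 0.12, adjusted p = 0.801). The disulfide isomerase P4HB differed by -0.17 (SE 0.07, adjusted p = 0.797) and NOXA1 by -0.06 (SE 0.12, adjusted p = 0.924). The other catalytic subunits and maturation factors of the NOX and DUOX families were dim: of 6 on the array, 0 passed the filter, so they were not tested. The median of the oxidase partners against the mean of the controls was -0.0053 on SH1 and -0.06 on SH3.

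Regulators of Rac and of Rap1 are the exchange factors, GTPase-activating proteins and inhibitors that set how much of these GTPases is GTP-bound. Of 18 Rac regulators tested 0 passed limma's adjusted threshold, and 1 higher and 1 lower gene had an unadjusted p under 0.05. The groups were apart on 7 of the 18 in the higher direction (18.2% of all genes) and on 1 in the lower (19%), 12 had a higher and 6 a lower mean, and the list's median was 0.06 (SH1 0.05, SH3 0.12). TIAM1, a Rac exchange factor, had log2 intensities of 8.44 on LEN-GFP, 8.09 on SCR, 8.86 on SH1 and 9.25 on SH3. Both hairpins were above both controls, by a difference of 0.79 (SE 0.20, unadjusted p = 0.0103, adjusted p = 0.797 in limma). PREX1, an exchange factor for Rac driven by phosphoinositides, differed by 0.49 (SE 0.21; SH1 0.20, SH3 0.78), and ARHGDIA, an inhibitor that holds Rac in the cytosol, by -0.41 (SE 0.15; SH1 -0.52, SH3 -0.30) (adjusted p = 0.797 for each).

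Of 14 Rap1 regulators tested 0 passed limma's adjusted threshold, and 2, both higher, had an unadjusted p under 0.05. The groups were apart on 6 of the 14 in the higher direction (18.2% of all genes) and on 1 in the lower (19%), 8 had a higher and 6 a lower mean, and the median was 0.13 (SH1 0.08, SH3 0.14). SIPA1L1, a GTPase-activating protein for Rap, had log2 intensities of 9.38 on LEN-GFP, 9.28 on SCR, 9.70 on SH1 and 10.21 on SH3. Both hairpins were above both controls, by 0.63 (SE 0.20, adjusted p = 0.797 in limma). RAP1GAP2, also a GTPase-activating protein for Rap1, differed by 0.59 (SE 0.24; SH1 0.26, SH3 0.91). RASGRP3, an exchange factor for Ras and Rap, differed by 0.49 (SE 0.15; SH1 0.68, SH3 0.29) (adjusted p = 0.797 for each). RAP1A and these genes were all highest on SH3 except RASGRP3, which was highest on SH1.

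Kinases of oxidase assembly include those that phosphorylate p47phox and those that make the lipids its subunits bind. Of 16 tested 0 passed limma's adjusted threshold, and 2 higher and 1 lower gene had an unadjusted p under 0.05. The groups were apart on 4 of the 16 in the higher direction and on 3 in the lower, near the 18.2% and 19% of all genes, with a median of 0.03. Set alone against the controls, SH3 was called higher on 3 Rac regulators, 4 Rap1 regulators and 5 of these kinases, and lower on 0, 0 and 2, in the fit that called 6.27% of all genes higher and 6.9% lower. PIK3R6, an adaptor subunit of phosphoinositide 3-kinase gamma, had log2 intensities of 8.67 on LEN-GFP, 8.38 on SCR, 9.06 on SH1 and 9.88 on SH3. The hairpin arrays exceeded both controls, by 0.95 (SE 0.30, adjusted p = 0.797). The protein kinase C gene PRKCE differed by 0.37 (SE 0.13) and the kinase AKT1 by -0.34 (SE 0.12), with the same adjusted p.

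Of 16 transcription factors linked to oxidase genes 0 passed limma's adjusted threshold and 0 had an unadjusted p under 0.05, while 1 was apart higher and 1 lower (18.2% and 19% of all genes), and the median was -0.0087. Against the mean of the controls, the median was 0.0032 on SH1 and 0.01 on SH3. NFKB1, a subunit of NF-kB, differed by -0.23 (SE 0.12, adjusted p = 0.797) and the homeobox factor MEIS1 by 0.08 (SE 0.10, adjusted p = 0.890). SPI1 stayed between 11.23 and 11.32 on the 4 arrays, with both hairpins between the controls.

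**Figure D4:**
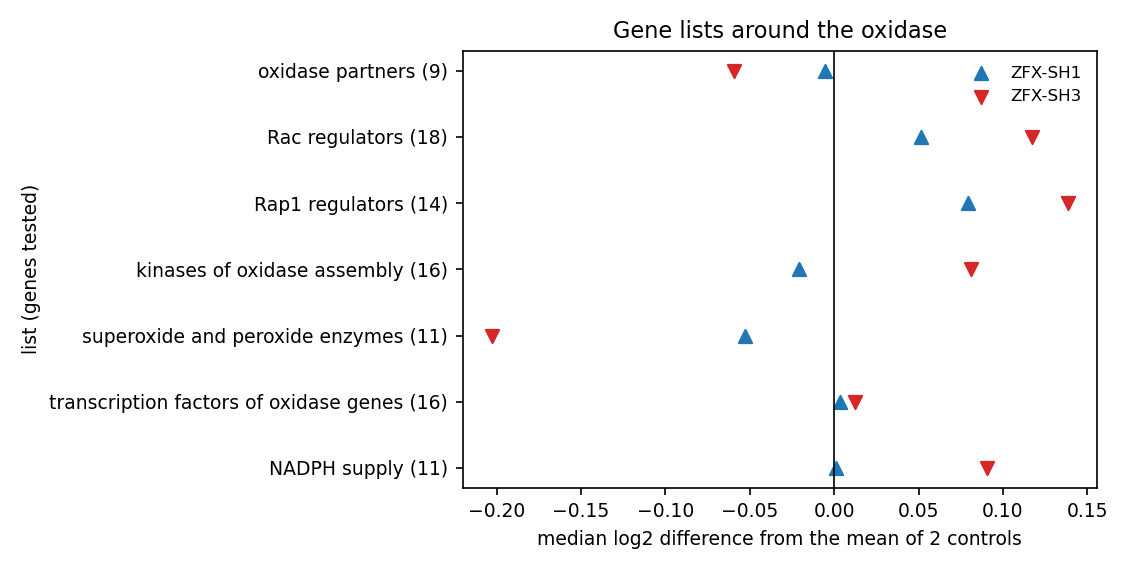
Median log2 difference from the mean of the controls for 7 gene lists around the oxidase on SH1 and on SH3, with the number of genes tested in brackets. The Rap1 regulators lie at 0.08 on SH1 and 0.14 on SH3, and the enzymes of superoxide and peroxide at -0.05 and -0.20.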

How the data were processed

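Human NOMO-1 RNA was hybridised to 4 Affymetrix arrays. The deposited table gives linear intensities of 33297 probe sets, made with Affymetrix Expression Console 1.1 and RMA per the submitters' processing notes. This method yields log2 values, and how the authors came to linear ones is not stated in the labels. No detection call comes with the intensities, and the number of arrays limits precision.

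Analysis used log2 of these intensities, without an offset. Of the probe sets, 19460 had 1 symbol in the platform annotation, 1754 several and 12083 none. They were matched to RefSeq (GRCh38.p14) by Entrez ID (19429 matched). The brightest probe set stood for each gene, and the dimmest 30% of genes were left out (5525 genes, below a mean log2 of 6.70). The groups were fitted in R 4.3.3 with limma 3.58.1 (intensity trend, 2 residual degrees of freedom), two-sided, with Benjamini-Hochberg adjustment over 12892 genes. Single hairpins were compared with the rest of the arrays giving the spread (1 residual degree of freedom). The fit of knock-down against control was tested on simulated data for the mean size of the changes put in. The fits of single hairpins were not tested in this way. The members and lists were chosen with earlier results of these data known.

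Named were all 7 members, ZFX, up to 3 genes per list with the largest difference among those whose groups did not overlap, and the 5 genes nearest to the member of widest range. CD14, CLEC7A, ITGAM, SPI1, MPO, GPX3, PRDX1 and PRDX3 were named after their values were seen. Promoter windows come from RefSeq. The fit over all probe sets was added after the data were seen. Alternatives were the filter, the moderation, the choice of probe set, the scaling, an offset of 16 and each array left out.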

Additional observations from a re-analysis of the deposited data

Results flagged for a closer look

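CYBB was picked out because its signal differed between the arrays of the 2 hairpins against ZFX, with 1 array of each. SH3 minus SH1 was -0.62 on the log2 scale in limma (SE 0.08, adjusted p = 0.00398), from 13.50 on SH1 to 12.88 on SH3. Of all genes tested, 7.37% had a difference between these arrays at least as large in size. ZFX itself was nearly equal on them, at 10.13 and 10.12, and its part in the CYBB difference was not tested. The call was not made with all probe sets fitted (adjusted p = 0.0775).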

How the results depend on the processing

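No paired analysis was possible because the labels give no shared numbers between the groups. Leaving out each array in turn, the difference between the groups ranged from -0.15 to 0.13 for CYBA, from -0.29 to 0.33 for CYBB, from -0.023 to 0.059 for NCF4, from -0.034 to -0.011 for RAC1, from -0.0089 to 0.13 for RAC2, from 0.15 to 0.54 for RAP1A (adjusted p down to 0.0155 in limma, without SH1) and from 0.11 to 0.52 for the shared NCF1 signal. CYBA changed sign without LEN-GFP or SH3, CYBB and NCF4 without SH1, and RAC2 without SH3. The genes called ranged from 0 without a control to 1698 without SH1, and the members apart from 1 to 3 higher and from 0 to 3 lower, with fewer arrays to hold apart. RAC1 differed by 0.049 with the mean of its probe sets. Its SH3 minus SH1 was 0.087 with that mean, 0.0016 with arrays centred on their median and 0.024 after a further quantile step. CYBB's SH3 minus SH1 of -0.62 was not called over all probe sets (adjusted p = 0.0775) and kept its call under the other 7 alternatives. The cause of these shifts was not tested. Under the 9 alternatives with all arrays kept, RAP1A differed by 0.34 at each (adjusted p 0.759 to 0.902), and limma called 0 genes between the groups. Without a detection call, dim members of the lists could not be told from unexpressed ones, and fewer cells of a type cannot be told apart from less RNA per cell.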

Other observations

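The enzymes that deal with superoxide and peroxide, the products of the oxidase, had a lower mean on the hairpin arrays in 10 of 11 genes tested, and 0 of the 11 passed limma's adjusted threshold between the groups. Of the 11, 6 were apart lower and 1 higher, where 19% and 18.2% of all genes tested were, and 2 (both lower) had an unadjusted p under 0.05, where 6.04% of all genes had. SH3 alone against the controls was called lower on 2 and higher on 0, in the limma fit that called 6.9% of all genes lower and 6.27% higher. For the list, the median was -0.15 (-0.05 on SH1, -0.20 on SH3), beside -0.0029 for all genes, whose differences thus lay about evenly around 0. SOD1, the cytosolic superoxide dismutase, had log2 intensities of 11.01 on LEN-GFP, 11.15 on SCR, 10.73 on SH1 and 10.23 on SH3. It was lower on both hairpins than on both controls, by a difference of -0.60 (SE 0.19, unadjusted p = 0.0257, adjusted p = 0.797). PRDX2, a peroxiredoxin, differed by -0.31 (SE 0.11), and SOD2, the mitochondrial superoxide dismutase, was the 1 gene apart in the higher direction, by 0.23 (SE 0.13). The groups overlapped on MPO, GPX3, PRDX1 and PRDX3. MPO had 13.30 on LEN-GFP, 13.36 on SCR, 13.30 on SH1 and 12.31 on SH3. GPX3 was the lowest on SH1 (8.67) and the highest on SH3 (9.45).

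Enzymes that supply NADPH, the electron donor of the oxidase, went both ways. Of 11 tested, 3 were apart higher and 3 lower (18.2% and 19% of all genes), with a median of 0.05. In limma 0 passed after adjustment, and 1 higher and 1 lower gene had an unadjusted p under 0.05 (6.04% of all genes). Against the mean of the controls, the list's median was 0.00083 on SH1 and 0.09 on SH3. PGD, of the pentose phosphate pathway, differed by 0.20 (SE 0.07) and H6PD, which makes NADPH in the endoplasmic reticulum, by -0.54 (SE 0.20, adjusted p = 0.797 for each). The mitochondrial malic enzyme ME2 differed by 0.20 (SE 0.12, adjusted p = 0.801).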
